A study of Rattus norvegicus with 14 samples.

Results

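Slc26a9, Cys1, Pde6a, Septin1, F2rl3 and Scn4a are 6 genes whose signal was higher in the choroid plexus (CP) of ovariectomized rats than in that of sham-operated females. They are 6 of the 15154 genes that the probes of the array could be matched to. They were selected on the difference of their array signal between OVX and sham females, so that the female values below describe the choice and carry no test. For each gene the brightest of its probes was followed on every array, 9 probes matching the 6 genes in all. Each of the 6 averaged higher in OVX females, as the choice itself sets. The choice was not made on the male arrays, which were tested, though earlier results of these data were known when the genes were chosen.

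The arrays came from Wistar rats operated on at 2 months of age and killed 2 weeks later. OVX females had lost the ovaries and sham females had a mock operation, while OOX males had lost the testes and sham males had a mock operation. Both lateral ventricle CP of each animal were collected, RNA of 3 animals was pooled, and each pool was hybridized to 1 Cy3 array. There were 3 OVX female, 3 sham female, 4 OOX male and 4 sham male pools. The methods name 3 pools per group, and it is not given whether pools shared animals, so the p-values measure the spread between pools. The tissue was taken whole, and fewer cells of a type cannot be told apart from less RNA per cell.

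The CP is the folded epithelium of the brain ventricles that secretes cerebrospinal fluid by moving sodium, chloride and bicarbonate across its cells. Its epithelial cells also carry tufts of cilia. The 6 genes belong to different systems: anion exchange and chloride conductance (Slc26a9), excitable sodium channels (Scn4a), thrombin sensing (F2rl3), cyclic GMP breakdown (Pde6a), the primary cilium (Cys1) and the septin cytoskeleton (Septin1). They are best known from other tissues: Slc26a9 from airway and stomach, Cys1 from kidney, Scn4a from skeletal muscle, F2rl3 from platelets, Pde6a from rod photoreceptors and Septin1 from lymphocytes.

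All values are log2 of the background-subtracted signal over the median of the array, so that 0 is the signal of the middle probe of that array and each unit is a doubling. The array medians lay between 170.9 and 288.6 intensity units. The scanner software marked 79.7% to 87.2% of spots as well above background, meaning clearly brighter than the background around them. The share was 85.3% to 87.2% on OVX arrays, against 79.7% to 82.7% on sham female arrays. It was 83.5% to 86.5% on OOX arrays, against 80.3% to 85.7% on sham male arrays. These shares stand beside the counts of marked genes below. Each array has its own dimmest level at which a probe was still marked so. That level lay at -4.80 to -4.63 on the OVX arrays and at -4.28 to -3.75 on the sham female arrays. It lay at -4.72 to -4.10 on the OOX arrays and at -4.72 to -3.90 on the sham male arrays. All 12 CP epithelial markers, such as Ttr and Kl, were well above background on all 14 arrays, 6 of them saturated on each. Their summed signal was 2114 to 3357 times the array median on OVX arrays, against 2837 to 3370 on sham female arrays. It was 2271 to 2944 on OOX arrays, against 2842 to 3305 on sham male arrays. A saturated probe cannot read brighter, so its level over the array median falls where that median is higher. These sums therefore do not give the amount of epithelial RNA.

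Only Cys1 was measured well on both sides of the female comparison. The other 5 genes were well above background on 3 of 3 OVX arrays and on 0 of 3 sham female arrays. In females 284 named genes had this pattern of being marked on every OVX array and on no sham array, and 3 named genes had the reverse. For such genes a bound is given that allows only for the dim sham signal. It does not allow for the spread between pools, other probes or other processing, which can give smaller differences. The OVX mean was set against the mean, over the sham arrays, of the dimmest level marked as well above background or of the gene's own signal where that was higher. The 1772 named genes well above background on no female array had a median difference of -0.60, against -0.04 over all 27517 features. Those genes were picked for staying unmarked, and the marking level was lower on OVX than on sham female arrays. A negative median is thus partly set by the picking and is no contrast to the 6 genes. The OVX and sham female values did not overlap for 6 of the 6 genes, which the choice itself sets, and 14.5% of all features were higher in OVX females without overlap.

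**Figure D1:**
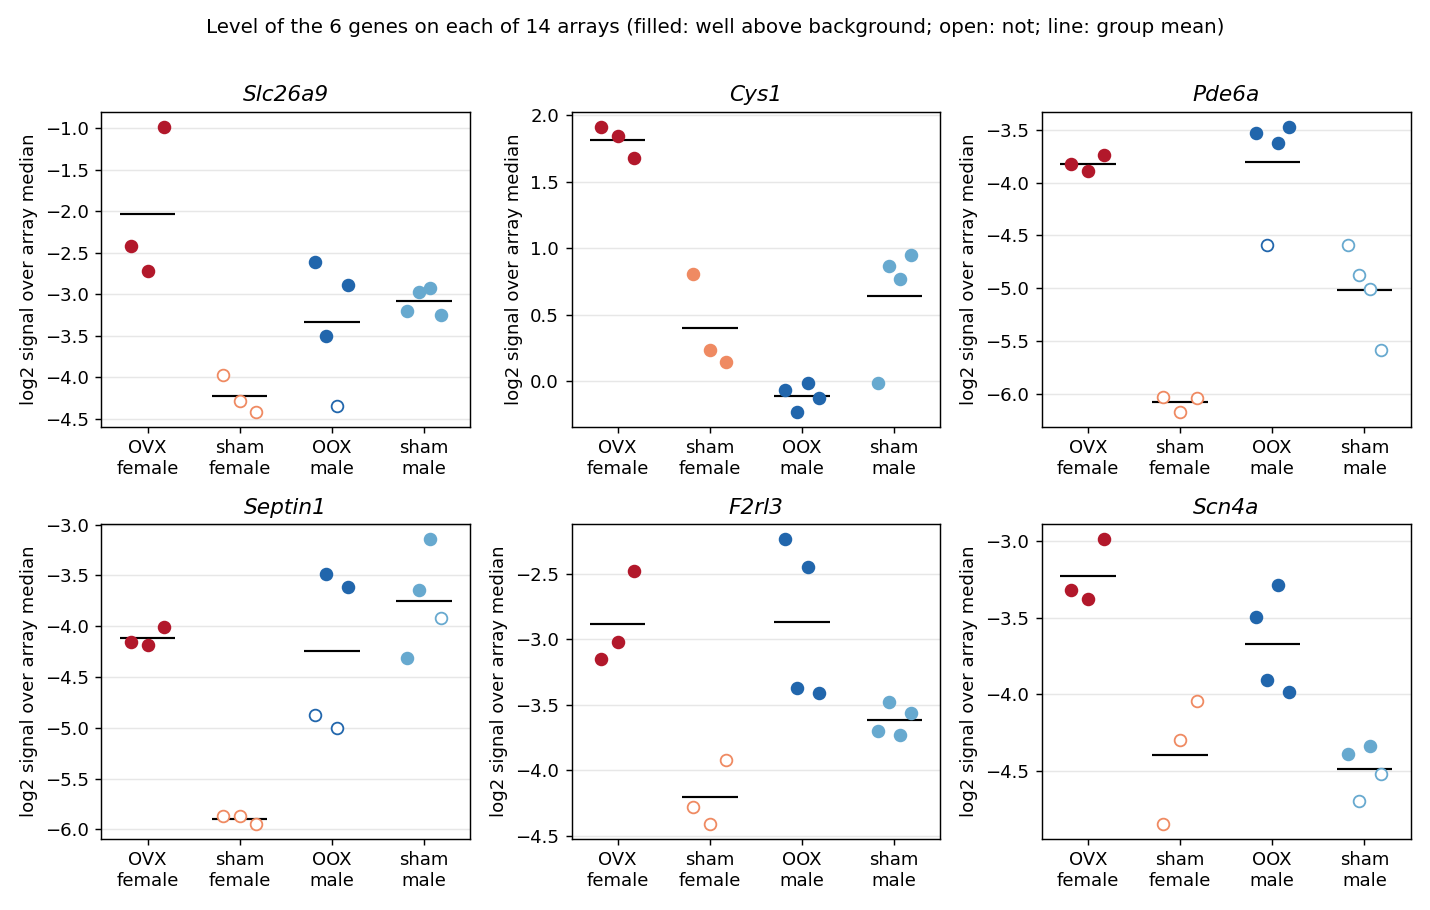
Level of each of the 6 genes (y axis, log2 signal over the array median) on the 14 arrays, grouped as OVX female, sham female, OOX male and sham male. Each point is 1 pool, filled where the probe was well above background, and the line is the group mean. Only Cys1 has filled points on every array, and the sham female points of the other 5 genes are all open.

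Slc26a9, which carries anions and conducts chloride in airway and stomach epithelium, showed the widest spread among the OVX pools. Its level was -2.41, -2.72 and -0.98 on the OVX arrays, against -3.97, -4.29 and -4.42 on the sham female arrays. OVX replicate 3 stood well above the other OVX pools, and even the lowest OVX pool lay 1.25 above the highest sham female pool. The mean difference was 2.19 (SE 0.45, n = 3 each), ranked 38 of 27517 features, and the bound was 3.77-fold. Without OVX replicate 3 the difference was 1.66. A further probe for the same transcript was much flatter. It read -4.04, -3.98 and -3.44 on OVX arrays, against -4.16, -3.98 and -4.11 on sham female arrays. The groups overlapped on that probe, with a mean difference of 0.26 and a bound of 1.02-fold. That probe was again marked on 3 OVX and 0 sham female arrays.

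In males the Slc26a9 groups overlapped. The level was -2.61, -3.50, -4.34 and -2.88 on the OOX arrays, against -3.20, -2.97, -2.92 and -3.25 on the sham male arrays. The sham males lay close together, while the OOX pools spread above and below them. The difference was -0.25 (SE 0.35, n = 4 each; limma adjusted p = 0.959; two-sided exact permutation p = 0.714). Leaving out OOX replicate 3 turned it to 0.09, and the only slide that held both male groups gave 0.20. The further probe differed by -0.03.

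The promoter of Slc26a9 is shown because this gene had the largest bound of the 6 in females and overlapping groups in males, and those of Cys1 and Pde6a because their differences in males had opposite signs. Each run holds 250 bases before and 50 bases after the start site of the RefSeq gene on the GRCr8 rat assembly, and all 6 genes were matched. The search covered both strands for the oestrogen response element GGTCANNNTGACC, its half-site AGGTCA, the androgen response element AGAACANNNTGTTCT, the TATA box TATAAA, the CCAAT box CCAAT and the GC box GGGCGG. The half-site is contained in some full oestrogen elements. Capitals mark matches on either strand. The Slc26a9 stretch lies on chromosome 13 at chr13:45729833-45730132 on the plus strand.
Slc26a9: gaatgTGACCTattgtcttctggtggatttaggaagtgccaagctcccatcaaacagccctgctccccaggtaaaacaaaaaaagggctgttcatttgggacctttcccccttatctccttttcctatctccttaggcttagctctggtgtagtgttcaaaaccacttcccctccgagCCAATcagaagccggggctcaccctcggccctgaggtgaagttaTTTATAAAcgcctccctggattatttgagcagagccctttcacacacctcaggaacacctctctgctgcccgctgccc
Neither full element occurred in the 6 promoters, while the oestrogen element occurred in 0.0269% and the androgen element in 0.0149% of 33469 rat promoters of the same length. The half-site occurred in 2 of the 6, against 16.2% of all promoters. In Slc26a9 it began at position -245 on the opposite strand. The capitals near the start are overlapping TATA matches on both strands, beginning at -28 and -26, and the CCAAT match began at -72. TATA matches occurred in 14.2% of all promoters and CCAAT matches in 37.5%.

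Of the relatives of Slc26a9, 5 were well above background on all 14 arrays. Of 7 other Slc26 genes measured, 0 were called in females or in males at an adjusted p under 0.05, with a median difference of -0.17 in females and -0.10 in males. Among all features, 2.74% were called higher and 4.48% lower in females, and 0.0618% in either direction in males. These shares also stand beside the counts of the lists below. Slc26a6, the exchanger for chloride, bicarbonate and oxalate, had the smallest p of the family in females. It averaged 3.69 in OVX and 3.34 in sham females (difference 0.35, SE 0.16, limma adjusted p = 0.259). In males it averaged 3.38 in OOX and 3.59 in sham (difference -0.21, SE 0.15, adjusted p = 0.861). Among 21 further genes of chloride and bicarbonate transport, 0 were called in either sex, with medians of -0.18 in females and -0.11 in males. Lrrc8a, a subunit of the volume-regulated anion channel, was lower on average in both: -1.07 in OVX against -0.08 in sham females, and -0.93 in OOX against -0.21 in sham males. Its adjusted p was 0.215 in females and 0.542 in males by limma. Car12, a membrane-bound carbonic anhydrase, averaged 2.35 in OOX and 2.84 in sham males (difference -0.49, SE 0.13, adjusted p = 0.452). Cftr, the chloride channel of other epithelia, was well above background on none of the 14 arrays and is named after its values were seen.

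Scn4a encodes the pore-forming subunit of the sodium channel of skeletal muscle. Its level was -3.32, -3.38 and -2.98 on the OVX arrays, against -4.85, -4.30 and -4.04 on the sham female arrays. All OVX pools lay above all sham female pools, the sham females being the more scattered. The mean difference was 1.17 (SE 0.24, n = 3 each), rank 636, with a bound of 1.65-fold. Within the slide that held both female groups, as OVX replicate 1 and sham female replicate 3 alone, it was 0.72.

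Scn4a also averaged higher in castrated males, and of the 6 genes it had the smallest p there. It was -3.50, -3.91, -3.29 and -3.99 on the OOX arrays, against -4.39, -4.70, -4.34 and -4.52 on the sham male arrays. The groups did not overlap, and the gap between them was 0.35. The difference was 0.82 (SE 0.19, n = 4 each), with an adjusted p of 0.371 by limma, and the exact permutation p of 0.0286 (two-sided) was the smallest that 4 against 4 pools can give. The probe was well above background on 4 OOX and 2 sham male arrays. Background correction by normexp, which adds a constant and shrinks dim probes, gave -0.05.

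Of 11 other sodium channel subunits reported here, 0 were called higher or lower in females, where 2.74% and 4.48% of all features were called higher and lower. Scn11a, a channel of sensory neurons, averaged -3.06 in OVX and -3.64 in sham females (adjusted p = 0.163). In males 0 of the 11 were called. The median difference was -0.37 in females, against -0.04 over all features, and 0.60 in males, against 0.01 over all features. Skeletal muscle markers summed to 13.3 to 16.6 times the array median on OVX arrays, against 11.7 to 15.4 on sham female arrays, and to 13.1 to 19.9 on OOX arrays, against 14.4 to 17.6 on sham male arrays. Of all spots, 85.3% to 87.2% were well above background on OVX arrays, against 79.7% to 82.7% on sham female arrays. Of the 11 muscle markers measured, 10 to 11 were so marked, against 8 to 11, and 0 were called in either sex. At an unadjusted p under 0.05 by limma, 2 were higher in OVX females and 1 was lower in OOX males. The shares of all features were 12.1% and 3.17%. Neuron markers had median differences of -0.69 in females and 0.47 in males. They summed to 6.51 to 20.1 on OVX arrays, against 9.27 to 46.6 on sham female arrays, and to 7.84 to 37.7 on OOX arrays, against 4.45 to 86.1 on sham male arrays. The part of muscle or neuron cells in these differences was not tested.

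F2rl3 encodes protease-activated receptor PAR4, a receptor that thrombin switches on by cutting it. It stood at -3.15, -3.02 and -2.48 on the OVX arrays, against -4.28, -4.41 and -3.92 on the sham female arrays. OVX replicate 3 was the highest pool of its group for F2rl3, as for every other of the 6 genes but Cys1, and its array had the highest median signal of the 14. The mean difference was 1.32 (SE 0.23, n = 3 each), rank 400, with a bound of 2.09-fold. Between OVX replicate 1 and sham female replicate 3, the only pair on a shared slide, it was 0.77.

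In males F2rl3 was well above background on all 8 arrays. It was -2.23, -3.37, -2.45 and -3.41 on the OOX arrays, against -3.71, -3.48, -3.73 and -3.56 on the sham male arrays. The OOX pools fell into a higher and a lower pair, the lower pair only just above the sham males, with a gap of 0.06. The difference was 0.75 (SE 0.28, n = 4 each; limma adjusted p = 0.648; two-sided exact permutation p = 0.0286). It was 0.18 within the slide that held OOX replicate 4 with sham male replicates 1 and 2, and 0.08 after normexp.

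Of 17 other genes for protease-activated receptors and their proteases, 0 were called in females or males, with medians of -0.18 and -0.07. F2rl1, the receptor cleaved by trypsin-like enzymes, averaged -2.66 in OVX and -2.27 in sham females (difference -0.39, SE 0.13, limma adjusted p = 0.142). F2, prothrombin itself, averaged -1.63 in OVX and -2.09 in sham females (adjusted p = 0.302). Platelet markers summed to 5.51 to 11.5 on OVX arrays, against 5.78 to 7.46 on sham female arrays, and to 5.97 to 8.14 on OOX arrays, against 5.95 to 6.87 on sham male arrays. On OVX arrays 85.3% to 87.2% of all spots were well above background, against 79.7% to 82.7% on sham female arrays. Of 6 platelet markers measured, 5 to 6 were so on OVX arrays, against 4 to 5 on sham female arrays. None passed the test in either sex by limma, though 3 were higher in OVX females at an unadjusted p under 0.05, where 12.1% of all features were, and 0 in males. Their part in the F2rl3 difference was not tested.

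Pde6a encodes the alpha catalytic subunit of the rod phosphodiesterase that breaks down cyclic GMP in light. Its level was -3.83, -3.89 and -3.74 on the OVX arrays, against -6.03, -6.18 and -6.04 on the sham female arrays. Both groups were tight and far apart. The difference of 2.26 (SE 0.12, n = 3 each) ranked 33, yet the bound was only 1.1-fold. The sham signals of 2.49 to 3.13 intensity units lay far below what those arrays marked as measured. After normexp the difference was 0.19. A further Pde6a probe was well above background on none of the 14 arrays and differed by 0.83.

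In males Pde6a was -3.53, -4.60, -3.62 and -3.47 on the OOX arrays, against -4.59, -4.87, -5.01 and -5.58 on the sham male arrays. OOX replicate 2 lay at the level of the highest sham male, overlapping it by 0.001, and the other OOX pools stood about 1 unit higher. The difference was 1.21 (SE 0.30, n = 4 each; limma adjusted p = 0.428; two-sided exact permutation p = 0.0571), the largest of the 6 genes in males. The probe was well above background on 3 OOX and 0 sham male arrays. No bound is given, since OOX replicate 2 was not marked either. The difference was 1.27 within the shared slide, 1.48 without OOX replicate 2 and 0.01 after normexp.

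The Pde6a promoter lies on chromosome 18 at chr18:56946999-56947298, plus strand, and holds the other half-site match, beginning at position 2 after the start.
Pde6a: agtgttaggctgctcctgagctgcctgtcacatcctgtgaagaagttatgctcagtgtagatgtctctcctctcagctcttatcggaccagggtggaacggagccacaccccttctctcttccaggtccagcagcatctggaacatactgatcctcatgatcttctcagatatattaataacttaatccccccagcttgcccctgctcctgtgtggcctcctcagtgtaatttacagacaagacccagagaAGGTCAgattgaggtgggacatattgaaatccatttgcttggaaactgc
No TATA, CCAAT or GC box letters were found in this window.

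Of 20 other phototransduction genes, 1 was called higher and 1 lower in females and 0 in males. Of all features 2.74% and 4.48% were called so in females, and 0.0618% in either direction in males. Cngb1, the channel subunit that cyclic GMP opens in rods, rose: it averaged -2.92 in OVX and -3.87 in sham females (difference 0.95, SE 0.17, limma adjusted p = 0.0401), being well above background on 3 OVX and 1 sham female arrays. In 7 of 12 other processing settings and with 5 of the 6 female arrays left out in turn, 0 of all relatives were called in females. Pdc, phosducin, was called lower (adjusted p = 0.0401) but was well above background on none of the 14 arrays, so no size is given. Named genes that were dim on every female array had a median difference of -0.60. Pdc falls outside the rule for named genes and is named because it is the only one called lower. Pde6h, the inhibitory subunit of the cone phosphodiesterase, averaged -0.11 in OVX and 0.80 in sham females (difference -0.91, SE 0.23, adjusted p = 0.0644). Gucy2f, a retinal guanylate cyclase, averaged -3.25 in OOX and -4.20 in sham males (difference 0.95, SE 0.34, adjusted p = 0.630). The list medians were 0.03 in females and 0.17 in males.

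Photoreceptor and pineal markers summed to 5.13 to 6.15 on OVX arrays, against 5.58 to 6.81 on sham female arrays, and to 5.66 to 8.06 on OOX arrays, against 4.26 to 8.003 on sham male arrays. The share of all spots well above background was 85.3% to 87.2% on OVX arrays, against 79.7% to 82.7% on sham female arrays. Of 8 markers reported here, 6 were well above background on each OVX array, against 4 to 5 on sham female arrays. Opn1sw, a cone opsin, was well above background on none of the 14 arrays, and Prph2, a disc protein of rods, on 1 OOX array only. In females 0 were called higher and 1 lower, Nrl, named after its values were seen, and in males 0 were called. Nrl, the rod transcription factor, averaged -3.90 in OVX and -1.81 in sham females (difference -2.10, limma adjusted p = 0.0401). At an unadjusted p under 0.05, 1 was higher (Aanat, by 0.44) and 2 lower (Nrl and Opn1sw) in OVX females. The shares of all features were 12.1% and 10.3%. In OOX males 2 were higher (Asmt by 1.08, Prph2 by 1.13) and 0 lower, where 4.52% and 3.17% of all features were. These genes were also named after their values were seen. The part of photoreceptor and pineal cells in the Pde6a difference was not tested.

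Cys1 encodes cystin, a membrane-bound protein of the primary cilium whose loss gives cystic kidneys in mice. Its probe was well above background on all 14 arrays. Its level was 1.92, 1.84 and 1.68 on the OVX arrays, against 0.81, 0.23 and 0.15 on the sham female arrays. The OVX pools lay close together, 0.87 above the highest sham female pool. The mean difference was 1.42 (SE 0.20, n = 3 each), a 2.67-fold higher level, ranked 290. It was 1.77 between OVX replicate 1 and sham female replicate 3, which shared a slide, and 1.23 after normexp. A further probe for Cys1 was dimmer and gave a difference of the same sign, 2.12. It read -2.59, -1.77 and -2.36 on OVX arrays, against -3.92, -4.29 and -4.87 on sham female arrays. Those groups did not overlap, and the bound was 3.27-fold.

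In castrated males the difference had the opposite sign. Cys1 was -0.06, -0.23, -0.01 and -0.13 on the OOX arrays, against -0.01, 0.87, 0.77 and 0.95 on the sham male arrays. Every OOX pool lay below every sham male pool, but sham male replicate 1 stood at the level of the OOX pools, 0.002 above the highest of them. The difference was -0.75 (SE 0.22, n = 4 each; limma adjusted p = 0.502; two-sided exact permutation p = 0.0286). Without sham male replicate 1 it was -0.97, with an adjusted p of 0.121 by limma. Within the slide that held this pool it was -0.56. The further probe read -3.76, -4.85, -4.35 and -4.13 on OOX arrays, against -3.77, -3.20, -2.84 and -3.28 on sham male arrays, a difference of -1.0, with OOX replicate 1 lying just above sham male replicate 1.

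The Cys1 promoter lies on chromosome 6 at chr6:47046622-47046921, minus strand.
Cys1: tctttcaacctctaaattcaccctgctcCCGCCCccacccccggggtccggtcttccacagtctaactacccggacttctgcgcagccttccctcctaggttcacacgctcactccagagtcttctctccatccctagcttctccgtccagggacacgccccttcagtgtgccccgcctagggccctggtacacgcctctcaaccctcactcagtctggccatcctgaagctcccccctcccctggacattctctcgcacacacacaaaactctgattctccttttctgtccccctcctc
It held none of the searched letters but 1 GC box, beginning at position -222 on the opposite strand, a motif found in 33.1% of all promoters. Its GC content was 59.7%, against a median of 51.7% over all rat promoters.

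Of 16 other genes of cystic kidney disease and the primary cilium, 15 were well above background on all 14 arrays and 0 were called in either sex, with medians of 0.02 in females and -0.05 in males. Arl13b, a small GTPase of the ciliary membrane, averaged 2.15 in OVX and 1.56 in sham females (difference 0.60, SE 0.17, limma adjusted p = 0.0907). Arl3, the GTPase that releases lipid-modified cargo in cilia, averaged 5.38 in OVX and 5.68 in sham females (adjusted p = 0.222). In males Rp2, which acts on Arl3, averaged 1.30 in OOX and 0.80 in sham (difference 0.50, SE 0.20, adjusted p = 0.648). Markers of motile cilia summed to 243.6 to 293.8 on OVX arrays, against 282.8 to 343 on sham female arrays, and to 181.1 to 330.1 on OOX arrays, against 217.6 to 283.1 on sham male arrays. All 6 measured were well above background on all arrays, and 0 were called in either sex. At an unadjusted p under 0.05 by limma, 1 of these markers was higher in OVX females, where 12.1% of all features were. Their part in the Cys1 difference was not tested.

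Septin1 belongs to a family of GTP-binding proteins that assemble into filaments. Its level was -4.15, -4.18 and -4.01 on the OVX arrays, against -5.87, -5.87 and -5.95 on the sham female arrays. Both groups were tight, as for Pde6a. The difference was 1.78 (SE 0.12, n = 3 each), rank 89, but no bound above 1 could be given, and after normexp it was 0.11. In males Septin1 was -4.87, -3.48, -5.00 and -3.62 on the OOX arrays, against -4.31, -3.65, -3.14 and -3.92 on the sham male arrays. The OOX pools again fell into 2 pairs, here on either side of the sham mean. The difference was -0.49 (SE 0.41, n = 4 each; limma adjusted p = 0.898; two-sided exact permutation p = 0.314), and it was 0.36 within the shared slide.

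Of 11 other septins, 10 were well above background on all 14 arrays and 0 were called in either sex, with medians of -0.05 in females and 0.21 in males. Septin4 averaged 7.08 in OVX and 7.30 in sham females (limma adjusted p = 0.431). Septin7, the core subunit of septin filaments, averaged 4.06 in OOX and 3.70 in sham males (difference 0.36, SE 0.14, adjusted p = 0.648). Lymphocyte markers summed to 3.35 to 4.42 on OVX arrays, against 2.89 to 3.35 on sham female arrays, and to 3.97 to 4.69 on OOX arrays, against 2.84 to 3.87 on sham male arrays. Of 10 measured, 8 were well above background on each OVX array, against 5 to 6 on sham female arrays. In males 7 to 9 were so on OOX arrays, against 6 to 8 on sham male arrays. Of all spots, 85.3% to 87.2% were so marked on OVX arrays, against 79.7% to 82.7% on sham female arrays. The male shares were 83.5% to 86.5% on OOX arrays, against 80.3% to 85.7% on sham male arrays. Cd2 was well above background on none of the 14 arrays and Cd3e on 1 OOX array only. None was called in either sex by limma, with 2 of 10 higher at an unadjusted p under 0.05 in females, where 12.1% of all features were, and 2 in males, where 4.52% were. Their part in the Septin1 difference was not tested.

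**Figure D2:**
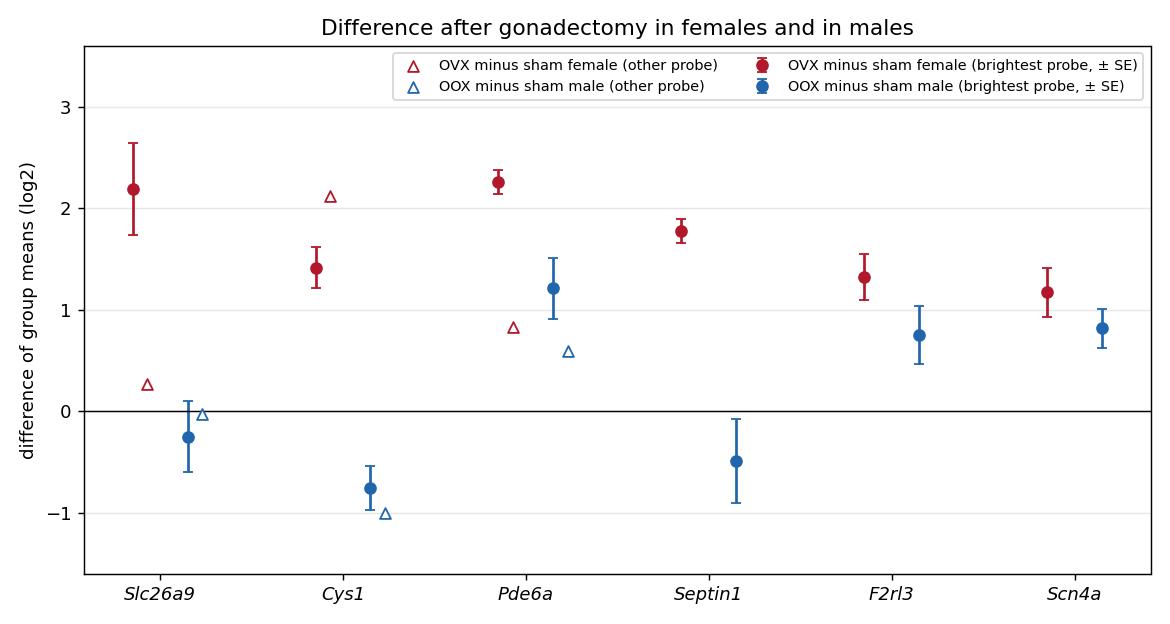
Difference of group means (y axis, log2) for each gene in females (OVX minus sham, red) and males (OOX minus sham, blue). Circles are the brightest probe with its SE from limma and triangles the further probe of Slc26a9, Cys1 and Pde6a. All female circles lie above 1, while the male circles lie above 0 for Pde6a, F2rl3 and Scn4a and below 0 for the other 3 genes.

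Across the 6 genes, the male comparison called 0 at an adjusted p under 0.05 by limma, where 0.0618% of all features were called. At an unadjusted p under 0.05, 3 were higher in OOX males (Pde6a, F2rl3 and Scn4a) and 1 was lower (Cys1), where 4.52% and 3.17% of all 27516 features were. The OOX and sham male pools did not overlap for 2 higher genes and 1 lower gene, where 2.53% and 1.82% of all features were higher and lower without overlap. The methods' t-test called 3 of the 6 at an unadjusted p under 0.05, where it called 8.1% of all features, and 0 after Benjamini-Hochberg adjustment. Whether the male and female differences differ was not tested, since the female ones had been chosen for their size.

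Of the 4 groups, sham females averaged lowest for Slc26a9, Pde6a, Septin1 and F2rl3. Low sham female values, and OVX values above them, are part of how the genes were chosen, and none of these sham female values was well above background. For Pde6a, Septin1 and F2rl3 all 11 other arrays lay above all 3 sham female arrays, for Slc26a9 10 of the 11, for Scn4a 7 and for Cys1 5. The share of all features with such counts was not taken, so the counts are not read as particular to the 6 genes. Pde6a averaged -3.80 ± 0.53 in OOX males and -3.82 ± 0.07 in OVX females, then -5.02 ± 0.42 in sham males and -6.08 ± 0.08 in sham females (SD, n = 4, 3, 4 and 3). F2rl3 followed the same order, with -2.87 ± 0.61 in OOX males, -2.88 ± 0.35 in OVX females, -3.62 ± 0.12 in sham males and -4.21 ± 0.25 in sham females. Pde6a was well above background on none of the sham arrays of either sex, so its 2 sham levels have no order. For both genes the OOX male and OVX female levels differed by less than the spread between pools.

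Scn4a averaged -3.23 ± 0.21 in OVX and -4.40 ± 0.41 in sham females, and -3.67 ± 0.33 in OOX and -4.49 ± 0.16 in sham males, the 2 sham levels not differing beyond their spread. Septin1 averaged -4.12 ± 0.09 in OVX and -5.89 ± 0.05 in sham females, and -4.24 ± 0.80 in OOX and -3.75 ± 0.49 in sham males. The ranges of these last 2 groups overlapped each other and that of OVX females. Slc26a9 averaged -2.04 ± 0.93 in OVX and -4.23 ± 0.23 in sham females, and -3.33 ± 0.77 in OOX and -3.08 ± 0.16 in sham males. Its OOX range overlapped those of the other 3 groups. Cys1 averaged 1.81 ± 0.12 in OVX and 0.40 ± 0.36 in sham females, and -0.11 ± 0.10 in OOX and 0.64 ± 0.44 in sham males. OVX females were highest and OOX males lowest for Cys1, with the 2 sham groups overlapping between them. All sham female arrays were scanned on the first of 2 scan days and all male arrays on the second, so that scan day and sex cannot be told apart in the sham groups. Of the OVX arrays, 1 was scanned on the first day. When scan day was blocked, the female differences of the 6 genes rested on that OVX array against the sham female arrays. They ran between 1.06 (F2rl3) and 2.25 (Pde6a).

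**Figure D3:**
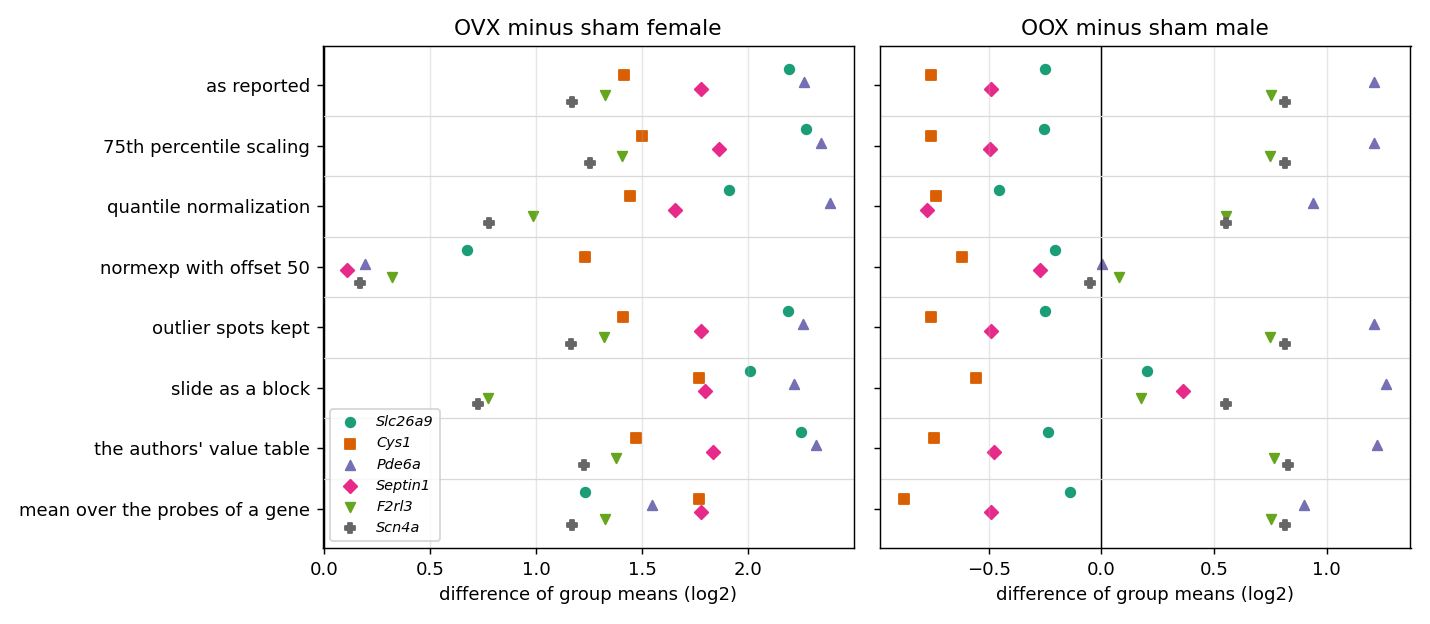
Difference of group means (x axis, log2) of each gene under 8 ways of processing (rows), in females (OVX minus sham, left) and males (OOX minus sham, right). With normexp the female points of all genes but Cys1 lie at 0.67 or below, and with slide as a block the male points of Slc26a9 and Septin1 change side.

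The size of the female differences of the 5 dim genes rested on how dim signal was treated. With normexp, Slc26a9 differed by 0.67 (SE 0.18), F2rl3 by 0.32 (SE 0.11) and Pde6a by 0.19 (SE 0.12). Scn4a differed by 0.17 (SE 0.11) and Septin1 by 0.11 (SE 0.14), less than its SE. The signs carry no test, since the genes were chosen on these arrays. Quantile normalization gave 0.98 for F2rl3 and 0.78 for Scn4a. Averaging over the probes of a gene gave 1.23 for Slc26a9, 1.55 for Pde6a and 1.77 for Cys1.

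**Figure D4:**
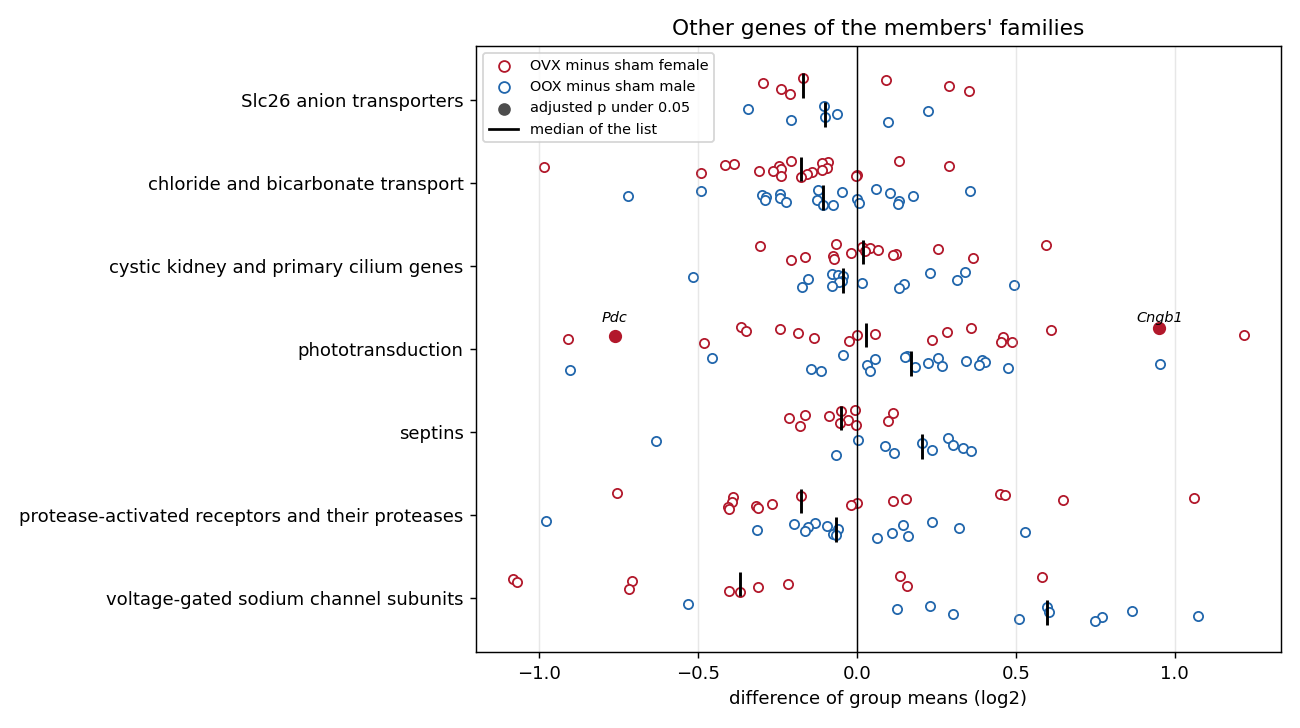
Difference of group means (x axis, log2) of the other measured genes of each family list, in females (OVX minus sham, red) and males (OOX minus sham, blue); filled points have an adjusted p under 0.05 and bars are list medians. Of 103 genes, Cngb1 was called higher and Pdc lower in OVX females, and 0 were called in males.

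Over the 103 relatives together, 1 was called higher and 1 lower in females, where 2.74% and 4.48% of all features were. In males 0 were called, where 0.0618% of all features were. Without OVX replicate 1, 2 or 3, or without sham female replicate 1 or 3, 0 were called in females.

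Over the 14 arrays, F2rl3 and Pde6a varied most alike among the 6 (Pearson r = 0.86), then F2rl3 with Scn4a (0.81) and Pde6a with Scn4a (0.75), while Cys1 stood apart from these 3 with r between 0.12 and 0.29. These values include the group differences that chose the genes. After the group means were taken out, F2rl3 and Scn4a had r = 0.67, F2rl3 and Pde6a 0.33, Pde6a and Scn4a 0.22, and Septin1 and F2rl3 -0.69. In OOX males the pools high in F2rl3, replicates 1 and 3, were the higher ones in Scn4a and the lower ones in Septin1. Replicates 1, 2 and 3 of OOX shared a slide.

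Among 12517 named genes, those whose levels over the 14 arrays were most like each of the 6 are given as a description, since all points share the arrays and their scaling. Nearest to Slc26a9 were Catsperg (r = 0.89), Tnfrsf4 (0.85) and Lrrc71 (0.85). Cys1 was nearest to C5h1orf210 (0.91), Wee1 (0.91), a kinase that holds cells before mitosis, and Slc25a37 (0.91), a mitochondrial iron carrier of erythroid cells. Pde6a was nearest to Tmprss5 (0.93), Evx2 (0.92) and Spata32 (0.90). Septin1 was nearest to Pcdh12 (0.90), Pstpip1 (0.90) and Kiss1 (0.90), which encodes kisspeptin. F2rl3 was nearest to C2cd4c (0.94), Spx (0.94), which encodes the peptide spexin, and Tdo2 (0.93), which breaks down tryptophan. Scn4a was nearest to Aqp5 (0.90), a water channel, Or7g25 (0.89) and Fermt1 (0.89).

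Beside the red blood cell gene Slc25a37 near Cys1, the erythrocyte markers summed to 28.4 to 38.2 on OVX arrays, against 18.6 to 28.3 on sham female arrays, and to 16.5 to 26.8 on OOX arrays, against 14.8 to 35.8 on sham male arrays. All 4 measured were well above background on every array, and 0 were called in either sex, with 3 of 4 higher in OVX females at an unadjusted p under 0.05, where 12.1% of all features were. Endothelial markers summed to 125.6 to 164 on OVX arrays, against 167.1 to 184.2 on sham female arrays. In males they summed to 99.65 to 184.6 on OOX arrays, against 122 to 167 on sham male arrays. Such a sum follows its brightest markers. The median difference of the endothelial markers was 0.05 in females and -0.17 in males. Fibroblast markers summed to 142 to 220.5 on OVX arrays, against 220.3 to 267.1 on sham female arrays. Their male sums were 195.1 to 275.2 on OOX arrays, against 136.1 to 300.9 on sham male arrays. The fibroblast median difference was -0.47 in females and 0.51 in males. Of the endothelial, fibroblast, neuron, astrocyte, myelin, and macrophage and microglia markers, 0 were called in either sex. At an unadjusted p under 0.05 by limma, 3 of 6 fibroblast markers were lower in OVX females, as was 1 of 6 astrocyte markers. Of all features 10.3% were lower there. Of the endothelial markers and of the macrophage and microglia markers, 1 each was higher in OVX females, where 12.1% of all features were. In OOX males 2 macrophage and microglia, 1 neuron and 1 myelin marker were higher, where 4.52% of all features were. Of the 12 CP epithelial markers, 7 were lower in OOX males at that threshold, where 3.17% of all features were, and 0 passed the adjusted one. However, 6 of the 12 were saturated on all 14 arrays, so that their level follows the array median. That median was 206.0 to 261.4 on OOX arrays, against 175.9 to 208.7 on sham male arrays. The count is therefore not read as less epithelial RNA. The part of any of these cell types in the differences of the 6 genes was not tested.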

How the data were processed

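CP RNA was measured on 14 one-colour arrays. The deposited scanner files hold intensity: the authors' Agilent Feature Extraction software subtracted the background of each spot, with no scaling between arrays. The deposited value table holds log2 values that the authors centred on the median with BRB-ArrayTools. Here control and outlier spots (222 to 877 per array) were left out, saturated spots kept, spots of a probe averaged, and log2 signal minus the median of 30367 probes was used. Probes carry accessions, which a RefSeq gene table (GRCr8, names only) matched for 18004 probes and 15154 genes. Each gene took its brightest probe, and 12363 unnamed probes were kept. OVX was compared with sham females and OOX with sham males with limma 3.58.1 in R 4.3.3, p-values being adjusted by Benjamini-Hochberg over all features. Single genes in males also had a two-sided exact permutation test. Scripts were tested on simulated data. The number of arrays limits the precision.

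Alternatives were 75th percentile scaling, quantile normalization, normexp (on median signals, offset 50), leaving out dim probes, keeping outlier spots, 1 fit of all groups, replicate number, slide or scan day as a block, array weights, the methods' t-test, the value table, means over probes, and leaving out each array. Named genes are the 6, the genes of each family list with the smallest p (4 in females, 2 in males) among those marked as measured on all arrays of 1 group, and the 3 most alike per member by Pearson r. The 6 genes and all lists were chosen with earlier results of these data known. Some genes of the lists are not reported here.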

Additional observations from a re-analysis of the deposited data

Results flagged for a closer look

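The differences of Cys1 had opposite signs in the sexes. All 3 OVX pools lay above the sham female mean, and all 4 OOX pools lay below the sham male mean, with differences of 1.42 in females and -0.75 in males on the log2 scale. This difference between the sexes was not tested.

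Pde6a on the array of OOX replicate 2 stood apart from the other OOX pools, at -4.60 against -3.62 to -3.47. The gap to the nearest pool was 0.863 of the range of the group, and this array was also the only OOX array on which the probe was not well above background. Chance alone flags about 1 in 20 groups of this size.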

How the results depend on the processing

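Of the 6 genes, 0 were called in males under any of the 20 alternatives, and their adjusted p-values ran between 0.0862 and 0.998. Differences in males changed sign for Scn4a with normexp (-0.049), for Slc26a9 and Septin1 with slide as a block (0.20 and 0.36) and for Slc26a9 when OOX replicate 3 was left out (0.0864). The cause was not tested; the slide block rests on the 1 slide that held both groups. Leaving out 1 array at a time, the male difference ran between -0.49 and that value for Slc26a9, -0.97 and -0.65 for Cys1, 1.02 and 1.48 for Pde6a, -0.74 and -0.24 for Septin1, 0.54 and 0.93 for F2rl3, and 0.69 and 0.92 for Scn4a. The dim filter left out Pde6a and Septin1 in males. All female differences of the 6 genes kept their direction, which is no test, since the genes were chosen on these arrays.

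The 2 relatives called in females became 0 with quantile normalization, normexp, all 4 groups in 1 fit, slide, scan day or replicate block, and the methods' t-test, 1 with the dim filter, and 0 to 3 with 1 array left out. Same-numbered arrays did not deviate together (r = 0.14, -0.02 and 0.10 in females, -0.31 to 0.14 in males), so replicate numbers were not taken as pairs. The replicate block, balanced here, cannot move a difference of means (1.42 for Cys1 in females), and gave adjusted p-values of 0.722 or more in males. In females 5 genes are measured on 1 side only, so dim signal limits the size of their differences.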
